A study of Homo sapiens with 6 samples.

Results

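The 45 human genes described here encode histone lysine methyltransferases, histone lysine demethylases and, as 1 of the 45, menin, the scaffold of a methyltransferase complex. They were listed by name, and the values of all RefSeq transcripts of a gene were summed. A gene was kept when this sum averaged at least 10 over the 6 libraries. All 45 were kept, among 15173 genes that passed the same filter. The samples were UWB1.289 cells, an established ovarian carcinoma line without functional BRCA1. Cells of the shHBO1 group (3 libraries) had been transduced with lentivirus carrying short hairpin RNA against HBO1, and cells of the shCTRL group (3 libraries) with a control hairpin. Polybrene at 10 µg/mL was used in both groups, and puromycin selection, raised in steps between 1 and 3 µg/mL, followed at 96 h. The number of hairpin sequences is not given in the sources used. Total RNA was sequenced, and both groups have libraries numbered 1 to 3. The labels do not name them as separate cultures, so the spread behind each p-value is that of these libraries and may be technical.

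Histone lysine methylation is written by SET domain enzymes, and by DOT1L through another fold, from the donor S-adenosylmethionine. It is removed by flavin-dependent amine oxidases (KDM1A and KDM1B) and by JmjC enzymes that need iron, oxygen and 2-oxoglutarate. Methylation of H3K4 marks promoters and enhancers, and that of H3K36 and H3K79 marks transcribed gene bodies. Methylation of H3K9 and trimethylation of H4K20 mark repressed chromatin. HBO1, the product of KAT7, is a histone acetyltransferase whose ING subunits bind methylated H3K4.

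Values are the deposited size-factor-normalized counts unless a sentence names another scale. KAT7 had 1008, 872 and 784 normalized counts in shHBO1 libraries 1, 2 and 3, against 3616, 3952 and 3554 in shCTRL libraries 1, 2 and 3. KAT7 fell to 23.9% of its shCTRL level, a log2 fold change of −2.07 (SE 0.11, limma adjusted p = 0.00123, exact permutation p = 0.1). In bulk RNA, loss in fewer cells and less RNA per cell cannot be told apart. Reads recovered from the normalized values ran from 37209917 to 39716678 in shHBO1 libraries and from 35940400 to 39908703 in shCTRL libraries. Both number 3 libraries stood apart from the others on the first principal component, which held 44.4% of the variance, and the values most affected are given with and without them. The 5 epithelial markers summed to 206163 to 257308 normalized counts in shHBO1 and to 216525 to 251570 in shCTRL. The 5 serous ovarian and Mullerian markers summed to 15780, 13696 and 11405 in shHBO1 libraries 1, 2 and 3, against 17724, 15918 and 11975 in shCTRL libraries 1, 2 and 3, lower in shHBO1 in each pair of same-numbered libraries. None of the 5 passed in limma. MUC16 and MSLN were lower in shHBO1 in all 3 pairs, with log2 fold changes of −0.39 and −0.37 (limma adjusted p 0.125 and 0.121 with the replicate number as a block). SOX17 had −0.26, with −0.56 and −0.38 in pairs 1 and 2 but 0.17 in pair 3. The part of these markers in the results was not tested. WT1, of the same list, was low in both groups, at 6.54 to 18.3 in shHBO1 and 0 to 26.2 in shCTRL (log2 fold change 0.90, SE 1.16). PAX8 was high and made up most of the sum, at 8001 to 11189 in shHBO1 and 8351 to 11302 in shCTRL (−0.07). The 6 leukocyte markers summed to 531 to 692 in shHBO1 and to 542 to 669 in shCTRL. CD68 made up most of this, at 462 to 633 in shHBO1 and 456 to 566 in shCTRL (log2 fold change 0.08). CD14 had 14.5 to 24.4 in shHBO1 and 38.4 to 39.6 in shCTRL (−1.06). CSF1R had 8.41 to 12.5 in shHBO1 and 14.2 to 29.4 in shCTRL (−0.84). These 2 were lower in shHBO1 without overlap, as 4.44% of all genes were. PTPRC had −0.26. None of the leukocyte list passed in limma, with or without the block. The 8 fibroblast and endothelial markers summed to 1737 to 2219 in shHBO1 and 1552 to 2477 in shCTRL. DCN was at 0 in every library, but others of that list were not low. CDH5 had 674 to 856 in shHBO1 and 835 to 1232 in shCTRL, lower in shHBO1 in all 3 pairs (log2 fold change −0.46). COL1A1 and COL1A2 were higher in shHBO1 in all 3 pairs (0.27 and 0.33). None of that list passed in limma, with or without the block.

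None of the 45 genes passed an adjusted p of 0.05 between shHBO1 and shCTRL in limma, a linear model fitted to log2(normalized count + 1) across all genes. The same test called 1 of all 15173 genes, KAT7, which is 0.00659%. With the replicate number as a block, a term for the number that a library of each group shares, it called 0 of the 45 and 19 of all genes, which is 0.125%. DESeq2 with that block also called 0 of the 45, beside 0.969% of all genes. At an unadjusted p under 0.05 stood 1 of the 45 without the block, against 3.55% of all genes, and 4 with the block, against 11.3%. The log2 fold changes ran from −0.19 for SETDB2 to 0.29 for KMT2D, with 25 above 0 and 20 below. Their median was 0.03, beside 0.00013 over all genes.

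The intervals given here are from limma without the block, on gene sums, and rest on a spread that may be technical. They do not bound the values of single transcripts or of fewer libraries given below. The 95% confidence interval of the log2 fold change lay within 1.5-fold in either direction for 44 of the 45 genes, and for 66.1% of all genes. KMT2D was the exception, with an interval from −0.08 to 0.65. All 45 intervals lay within 2-fold, as did 85.3% over all genes. Groups did not overlap for 2 of the 45 genes, or 4.44%, against 8.93% of all genes. SETD1B was the 1 higher in shHBO1, where 4.49% of all genes were, and SETDB2 the 1 lower, where 4.44% of all genes were.

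**Figure D1:**
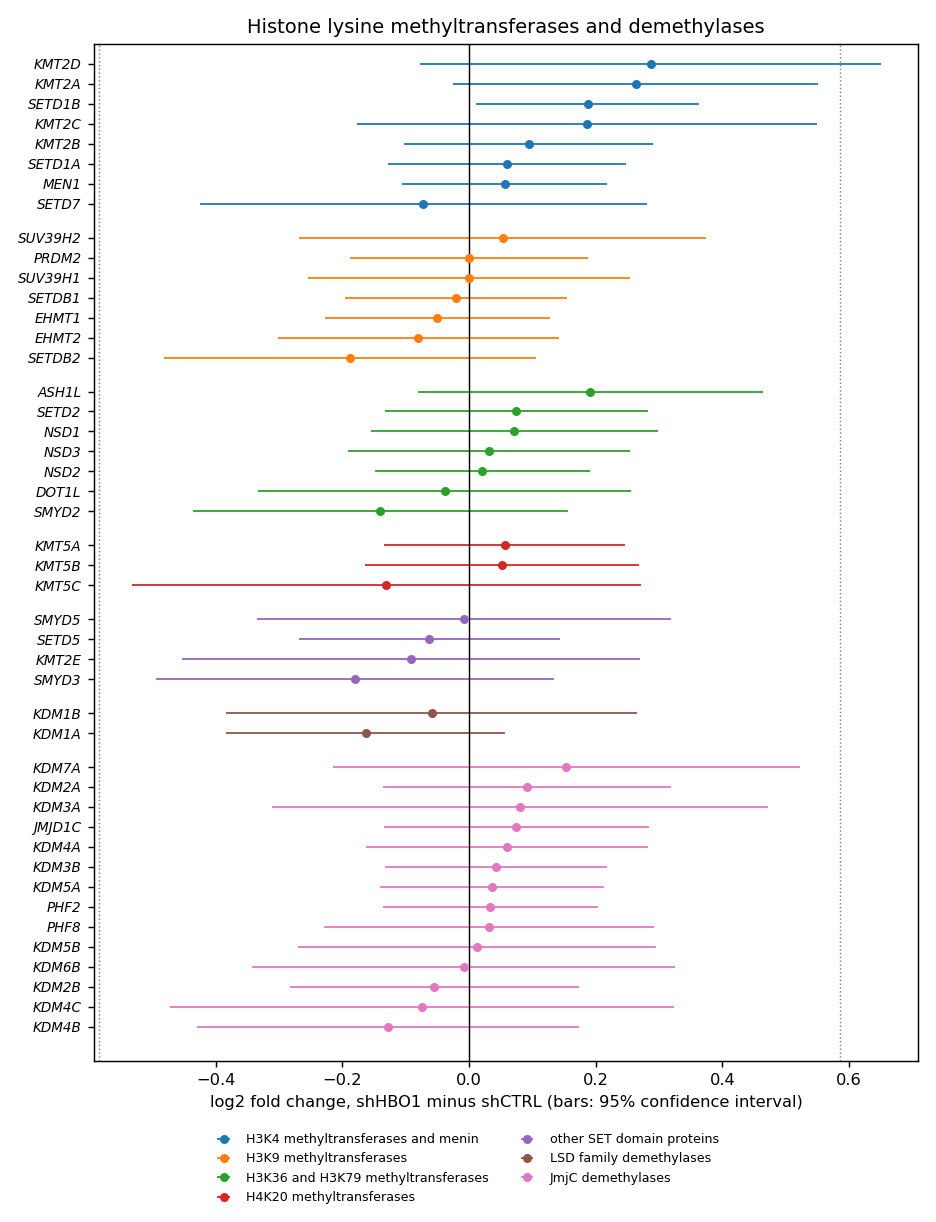
Log2 fold change (shHBO1 minus shCTRL, x axis) of each of the 45 genes (rows), with its 95% confidence interval from limma without the block as a bar, coloured by role. The dotted lines mark 1.5-fold in either direction. Estimates lie between −0.19 for SETDB2 and 0.29 for KMT2D, and KMT2D alone has an interval past a dotted line.

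The H3K4 methyltransferases of the KMT2 and SETD1 families work in COMPASS complexes, and MEN1 encodes menin, which holds KMT2A and KMT2B on chromatin. Of the 8 genes in this role, 7 had an estimate above 0, and none passed the test. The median estimate of the group was 0.14, and 7 of 8 stood above 0 under each of the other scalings too (TMM, DESeq2 size factors and quantile normalization). Single libraries moved it more, to 0.081 without shHBO1 library 1 and 0.095 without shCTRL library 2, and it was 0.17 without both number 3 libraries. KMT2A, KMT2B, KMT2C, KMT2D and SETD1B are also among the genes with long transcripts described below. The others had log2 fold changes of 0.06 (SETD1A), 0.06 (MEN1) and −0.07 (SETD7), and role was not separated from length. SETD1B, which encodes a methyltransferase for trimethylated H3K4 at promoters, had 1526, 1424 and 1518 normalized counts in shHBO1 libraries, against 1298, 1301 and 1322 in shCTRL libraries. Every shHBO1 value lay above every shCTRL value. The estimate was 0.19 on the log2 scale (SE 0.076, 95% confidence interval 0.01 to 0.36). Its limma adjusted p was near 1 without the block and 0.346 with it, and the exact permutation p was 0.1, the smallest that 3 against 3 libraries allow.

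KMT2A, the founding member of the MLL family and a frequent fusion partner in leukaemia, had 3304, 2889 and 2719 normalized counts in shHBO1, against 2301, 2234 and 2922 in shCTRL. The groups overlapped through shCTRL library 3, which was above shHBO1 libraries 2 and 3. The log2 fold change was 0.26 (SE 0.12, interval −0.02 to 0.55), and 0.45 without both number 3 libraries (limma adjusted p = 0.138). KMT2D, which places monomethyl marks on H3K4 at enhancers, was chosen after its values were seen. It had 2348, 1930 and 2077 in shHBO1, against 1584, 1480 and 2211 in shCTRL. Its shCTRL library 3 again lay among the shHBO1 values, and the log2 fold change was 0.29 (SE 0.16). It was 0.17 without shCTRL library 2, 0.46 without shCTRL library 3 and 0.48 without both number 3 libraries (limma adjusted p = 0.149 for the last).

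KMT2C, the paralogue of KMT2D, averaged 1112 ± 198 in shHBO1 and 972 ± 127 in shCTRL (SD, n = 3 each). KMT2B averaged 1341 ± 32.9 in shHBO1 and 1258 ± 84.3 in shCTRL. SETD1A, the paralogue of SETD1B, averaged 2514 ± 182 in shHBO1 and 2407 ± 83.3 in shCTRL. For these 3 genes the groups overlapped. MEN1 averaged 2361 ± 64.9 in shHBO1 and 2270 ± 66.2 in shCTRL. SETD7, which adds a single methyl group to H3K4 and to several other proteins, had the only estimate below 0 in this role, −0.07, with 2038 ± 289 in shHBO1 and 2152 ± 403 in shCTRL.

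**Figure D2:**
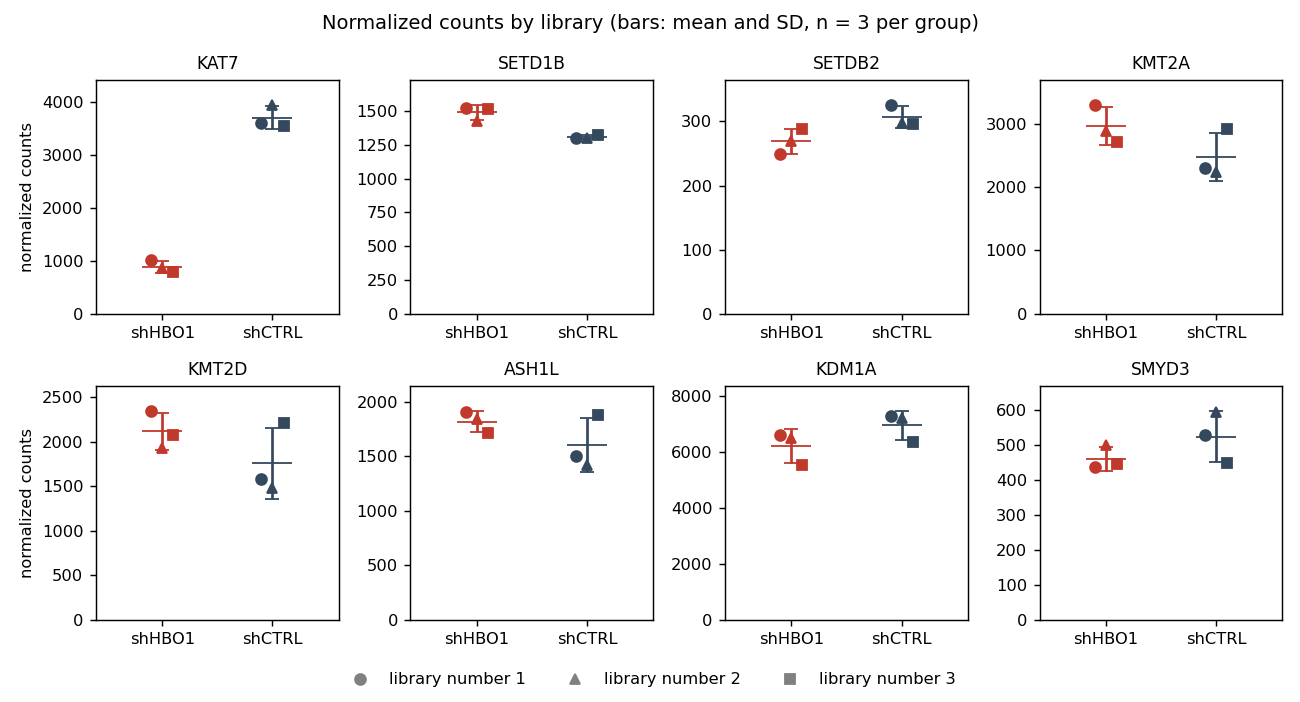
Normalized counts (y axis, from 0) of KAT7 and 7 enzymes in each library, shHBO1 left of shCTRL, with marker shape giving the library number and bars the mean and SD (n = 3 per group). KAT7 separates widely, SETD1B and SETDB2 separate narrowly, and for KMT2A, KMT2D and ASH1L shCTRL library 3 lies among the shHBO1 values.

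For the H3K9 methyltransferases the median log2 fold change was −0.02, with 6 of 7 estimates below 0. SUV39H1 and PRDM2 stood so close to 0 that this count was 4 of 7 with DESeq2 size factors and 5 of 7 with quantile normalization. Without both number 3 libraries 3 of 7 were below 0 and the median was 0.00058. SETDB2, a relative of SETDB1, had 249, 270 and 289 normalized counts in shHBO1, against 326, 297 and 296 in shCTRL. All 3 shHBO1 values lay below all 3 shCTRL values, narrowly, since the highest shHBO1 value was 289 and the lowest shCTRL value 296. Its estimate was −0.19 on the log2 scale (SE 0.13, exact permutation p = 0.1). It was −0.87 when only its most abundant transcript was used, where the groups overlapped and SETDB2 did not pass in limma. EHMT2, known as G9a, mono- and dimethylates H3K9 in euchromatin and had 2943, 2822 and 2461 in shHBO1, against 3072, 2955 and 2661 in shCTRL. It was lower in shHBO1 within each pair of same-numbered libraries, while the groups overlapped, and its log2 fold change was −0.08 (SE 0.096), or −0.0044 without shHBO1 library 3 and −0.14 without shCTRL library 3.

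EHMT1, the partner of EHMT2 in a heterodimer, averaged 3612 ± 271 in shHBO1 and 3733 ± 66.1 in shCTRL. SETDB1, which trimethylates H3K9 at retroelements together with TRIM28, averaged 1421 ± 54.6 in shHBO1 and 1441 ± 12.7 in shCTRL. SUV39H1 and SUV39H2 act at pericentromeric heterochromatin. SUV39H1 averaged 601 ± 28.6 in shHBO1 and 603 ± 54.7 in shCTRL. SUV39H2 averaged 1422 ± 140 in shHBO1 and 1380 ± 247 in shCTRL.

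PRDM2 gives rise to a long protein with an N-terminal PR domain (RIZ1), which carries the methyltransferase activity, and to a shorter protein without it (RIZ2) made from an inner start. In its summed counts PRDM2 overlapped between groups, with 1602, 1448 and 1446 in shHBO1 and 1513, 1531 and 1447 in shCTRL, and a 95% confidence interval of the log2 fold change from −0.19 to 0.19. The split between its transcripts passed the limma test without the block. By GENCODE 29 (GRCh38), NM_012231 encodes a long form of 1718 residues, and NM_015866, with the same start, encodes 1682 residues. NM_001007257 starts 44548 bases downstream of that start and encodes 1481 residues, and NM_001135610 encodes a truncated form of 226 residues. The 3 RefSeq promoters of the gene (GRCh38.p14, plus strand, 250 bases before to 50 after each start) are shown because they distinguish the outer from the inner start. Capitals mark the dinucleotide CG, which reads the same on both strands.
PRDM2 first start, chr1:13699938-13700237: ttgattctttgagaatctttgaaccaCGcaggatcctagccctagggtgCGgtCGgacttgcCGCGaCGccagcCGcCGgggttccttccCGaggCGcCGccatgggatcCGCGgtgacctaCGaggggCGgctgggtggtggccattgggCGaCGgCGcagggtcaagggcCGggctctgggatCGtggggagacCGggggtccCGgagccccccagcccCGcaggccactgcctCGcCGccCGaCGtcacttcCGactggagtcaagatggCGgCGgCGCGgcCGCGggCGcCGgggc
PRDM2 middle start, chr1:13703504-13703803: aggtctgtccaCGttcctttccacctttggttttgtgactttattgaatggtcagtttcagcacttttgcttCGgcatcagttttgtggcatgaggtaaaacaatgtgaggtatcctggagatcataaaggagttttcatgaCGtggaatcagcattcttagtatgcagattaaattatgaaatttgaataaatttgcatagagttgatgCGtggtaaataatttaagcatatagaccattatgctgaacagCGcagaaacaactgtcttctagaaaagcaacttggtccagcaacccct
PRDM2 inner start, chr1:13749165-13749464: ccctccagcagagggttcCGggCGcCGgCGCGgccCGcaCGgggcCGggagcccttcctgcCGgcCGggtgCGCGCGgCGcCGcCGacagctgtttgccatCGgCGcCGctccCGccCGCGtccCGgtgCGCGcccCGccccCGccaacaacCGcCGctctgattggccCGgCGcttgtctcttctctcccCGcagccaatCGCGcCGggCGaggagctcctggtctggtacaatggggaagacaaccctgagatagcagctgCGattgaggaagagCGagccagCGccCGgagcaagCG
The inner start lies 12 bases from that of NM_001007257 and its window holds 41 CG, a number that 6.69% of the 35116 RefSeq promoters of this length reach or pass. The first start lies 52 bases from that of NM_001135610 and holds 36 CG, which 12.7% reach or pass. The middle start is the nearest listed to NM_012231, at 1101 bases, and holds 5 CG, which 70.4% reach or pass. Over all these promoters the median was 14 CG, and 96.0% held at least 1.

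The long transcript NM_012231 had 53.3, 42.8 and 67.5 normalized counts in shHBO1 libraries, against 255, 271 and 165 in shCTRL libraries. All 3 shHBO1 values were below all 3 shCTRL values. As a share of PRDM2 counts it held 3.33, 2.95 and 4.67% in shHBO1, against 16.8, 17.7 and 11.4% in shCTRL, a mean of 3.65 ± 0.90% in shHBO1 and 15.3 ± 3.42% in shCTRL (SD, n = 3 each, exact permutation p = 0.1). The transcript without the PR domain, NM_001007257, had 1467, 1311 and 1304 in shHBO1, against 1142, 1192 and 1189 in shCTRL. Its share was 90.8 ± 0.74% in shHBO1 and 78.5 ± 3.41% in shCTRL, again without overlap. The truncated NM_001135610 had 79.4, 89.6 and 73.3 in shHBO1, against 116, 66.5 and 89.1 in shCTRL, and these overlapped.

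Against the other tested PRDM2 transcripts, NM_001007257 and NM_001135610, the log2 fold change of NM_012231 was −2.09 (limma diffSplice, adjusted p = 0.0073). It was the only one of 81 transcripts of 25 genes on the list to pass, beside 20 of all 26488 transcripts (0.0755%). With the replicate number as a block the adjusted p was 0.137, and 0 transcripts of the list passed, beside 0.0906% of all. A count test on the recovered reads, edgeR's diffSpliceDGE, added after the data were seen, gave −2.08 with an adjusted p of 0.834, and called 0 of all transcripts, with 529 at an unadjusted p under 0.05. Leaving out each library in turn gave −2.32 to −1.86 in limma, with adjusted p from 0.0109 to 0.0397. Tested on its own, with adjustment over all transcripts, NM_012231 had a log2 fold change of −2.05 (SE 0.34, limma adjusted p near 1).

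The sources used here do not say how reads were assigned to transcripts, which bears directly on this value. The long transcript has 7957 bases, of which 4610 are shared with NM_001007257. Of the 3347 others, 1282 lie upstream of the inner start and 2065 beyond the end of NM_001007257. Only 14 bases of NM_012231 are in none of the other 3 listed PRDM2 transcripts. Use of the outer start, use of the far end and the assignment of reads cannot be told apart in these counts.

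**Figure D3:**
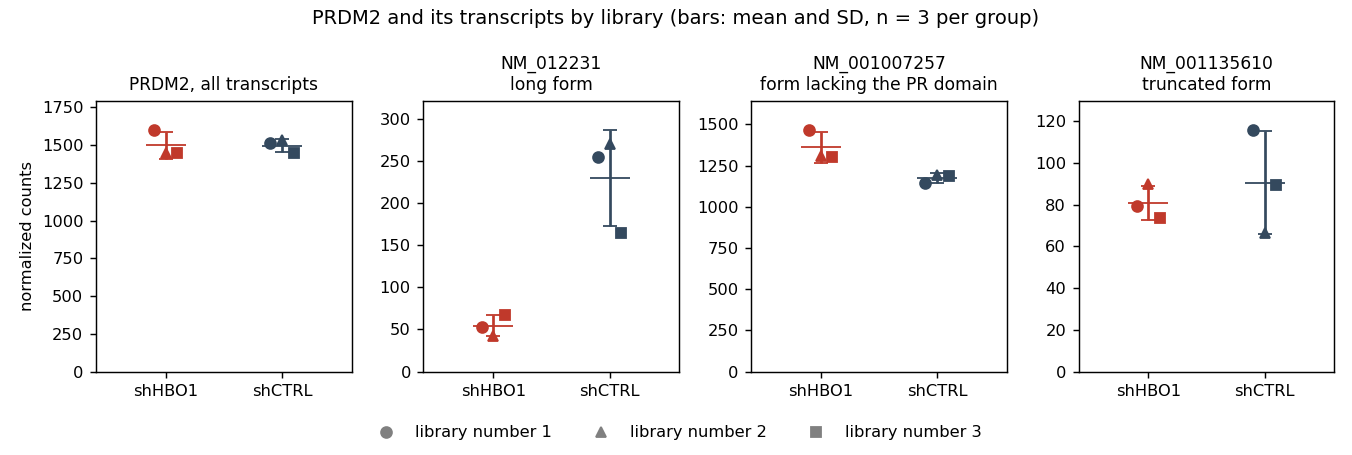
Normalized counts (y axis, from 0) of PRDM2 summed over its transcripts and of 3 transcripts in each library, shHBO1 left of shCTRL, with marker shape giving the library number and bars the mean and SD (n = 3 per group). The sum overlaps between groups, NM_012231 lies at 42.8 to 67.5 in shHBO1 and at 165 to 271 in shCTRL, and NM_001007257 lies higher in every shHBO1 library.

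Among the H3K36 and H3K79 methyltransferases, 5 of 7 estimates were above 0 and the median log2 fold change was 0.03. The median rested on single libraries, at 0.011 without shCTRL library 1 (4 of 7 above 0), 0.081 without shHBO1 library 3 (5 of 7) and 0.094 without shCTRL library 3 (6 of 7), and was 0.12 without both number 3 libraries. ASH1L, which dimethylates H3K36 and counteracts Polycomb, had 1902, 1836 and 1711 normalized counts in shHBO1, against 1502, 1420 and 1880 in shCTRL. The groups overlapped through shCTRL library 3. Its log2 fold change was 0.19 (SE 0.12), with 0.11 without shCTRL library 2, 0.31 without shCTRL library 3 and 0.36 without both number 3 libraries (limma adjusted p = 0.142 for the last). SMYD2, which methylates H3K36 and also the tumour suppressor p53, had 612, 620 and 663 in shHBO1, against 639, 638 and 826 in shCTRL. Its log2 fold change was −0.14 (SE 0.13), and its shCTRL library 3 was the highest of the 6. Without that library the value was −0.016.

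SETD2, the enzyme that trimethylates H3K36 behind elongating RNA polymerase II, averaged 2725 ± 200 in shHBO1 and 2587 ± 191 in shCTRL. NSD2, which dimethylates H3K36 and is overexpressed through a translocation in myeloma, averaged 20422 ± 1446 in shHBO1 and 20090 ± 272 in shCTRL. Its relatives NSD1 and NSD3 carry the same activity. NSD1 averaged 3794 ± 151 in shHBO1 and 3626 ± 452 in shCTRL. NSD3 averaged 1439 ± 73.4 in shHBO1 and 1411 ± 130 in shCTRL. DOT1L, the only known H3K79 methyltransferase, averaged 896 ± 74.4 in shHBO1 and 924 ± 135 in shCTRL. All 5 had log2 fold changes between −0.04 and 0.07, and their groups overlapped.

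KMT5A adds the first methyl group to H4K20 in the cell cycle, and KMT5B and KMT5C extend it. KMT5A had 3016, 3166 and 3044 normalized counts in shHBO1, against 2744, 2906 and 3243 in shCTRL, a log2 fold change of 0.06 (SE 0.082). Processed copies of KMT5A lie elsewhere in the genome, and reads shared with them could not be separated. KMT5C had 213, 187 and 197 in shHBO1, against 264, 215 and 181 in shCTRL, a log2 fold change of −0.13 (SE 0.17). KMT5B averaged 1748 ± 54.2 in shHBO1 and 1691 ± 170 in shCTRL. The groups overlapped for all 3 genes, and the estimate of KMT5A was −0.03 when only its most abundant transcript was used.

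The 4 other SET domain proteins all had estimates below 0, with a median log2 fold change of −0.08. Without both number 3 libraries 1 of the 4 was above 0. SMYD3, a methyltransferase with substrates in the MAP kinase pathway, had 436, 500 and 445 in shHBO1, against 528, 596 and 449 in shCTRL. The shHBO1 value was the lower within each same-numbered pair, and the log2 fold change was −0.18 (SE 0.14), or −0.083 without shCTRL library 2 and −0.29 without shCTRL library 3. SETD5 had 2139, 1925 and 1792 in shHBO1, against 2117, 2029 and 1957 in shCTRL, a log2 fold change of −0.06 (SE 0.089). It was −0.0031 without shHBO1 library 3, −0.13 without shHBO1 library 1 and −0.28 from its most abundant transcript alone. KMT2E, a relative of the MLL proteins whose SET domain has no firmly established activity, averaged 2304 ± 326 in shHBO1 and 2465 ± 436 in shCTRL. SMYD5 averaged 1988 ± 235 in shHBO1 and 2010 ± 360 in shCTRL.

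KDM1A encodes LSD1, the amine oxidase that removes mono- and dimethyl marks from H3K4 as part of the CoREST complex. KDM1A was chosen after its values were seen. It had 6622, 6515 and 5529 normalized counts in shHBO1, against 7306, 7209 and 6362 in shCTRL. It was lower in shHBO1 in 3 of 3 same-numbered pairs, by 0.14, 0.15 and 0.20 on the log2 scale, while the groups overlapped because both number 3 libraries were the lowest of their group. The estimate was −0.16 on the log2 scale (interval −0.38 to 0.06), −0.081 without shHBO1 library 3 and −0.14 without both number 3 libraries. With the block its SE was 0.053, against 0.095 without it. The unadjusted limma p with the block was 0.0147, the smallest of the 45 genes, and the adjusted p was 0.314. Its leading transcript NM_015013 alone had 5231, 5315 and 4534 in shHBO1, against 6092, 5951 and 5408 in shCTRL, where the groups did not overlap (log2 fold change −0.21, SE 0.092, limma adjusted p near 1). KDM1B, its paralogue, averaged 878 ± 132 in shHBO1 and 913 ± 111 in shCTRL.

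The 14 JmjC demethylases had 10 estimates above 0, a median log2 fold change of 0.04 and a range from −0.13 for KDM4B to 0.15 for KDM7A. The median was 0.0093 without shCTRL library 3 (8 of 14 above 0), 0.056 without shCTRL library 2 and 0.063 without shHBO1 library 3. KDM7A, which acts on H3K9 and H3K27, had 196, 203 and 239 in shHBO1, against 217, 177 and 179 in shCTRL, with SE 0.16. KDM4B, which removes trimethyl marks from H3K9, had 378, 336 and 350 in shHBO1, against 418, 409 and 340 in shCTRL, with SE 0.13. Both pairs of groups overlapped. Without both number 3 libraries KDM7A stood at 0.024, and without shCTRL library 1 at 0.25. KDM4B was at −0.073 without shCTRL library 1 and at −0.22 without shCTRL library 3. For the paralogue KDM4A the mean was 2381 ± 166 in shHBO1 and 2286 ± 211 in shCTRL, and for KDM4C it was 161 ± 22.3 in shHBO1 and 169 ± 15.7 in shCTRL.

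KDM2A and KDM2B bind CpG islands through a CXXC finger and remove H3K36 methylation. KDM2A averaged 7358 ± 167 in shHBO1 and 6943 ± 907 in shCTRL, and KDM2B 1781 ± 137 in shHBO1 and 1850 ± 163 in shCTRL. Of the H3K9 demethylases, KDM3A averaged 2214 ± 291 in shHBO1 and 2114 ± 445 in shCTRL, and KDM3B 2377 ± 117 in shHBO1 and 2308 ± 89.6 in shCTRL. Their relative JMJD1C averaged 3585 ± 257 in shHBO1 and 3406 ± 275 in shCTRL. The H3K4 demethylases KDM5A and KDM5B had log2 fold changes of 0.04 and 0.01. KDM6B, which removes H3K27 methylation, averaged 872 ± 154 in shHBO1 and 869 ± 68.4 in shCTRL. PHF2 and PHF8, PHD finger demethylases, both had log2 fold changes of 0.03.

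Levels between genes were compared as normalized counts per kb of transcript, which could be computed for 43 of the 45 genes. NSD2 was the highest, at 3828 ± 343 per kb in shHBO1 and 3740 ± 102 in shCTRL. KDM1A followed at 2048 ± 198 in shHBO1 and 2291 ± 171 in shCTRL, then KDM2A at 1640 ± 39.6 in shHBO1 and 1545 ± 213 in shCTRL, then MEN1 at 830 ± 25.5 in shHBO1 and 793 ± 29.5 in shCTRL. The ranges of these 4 genes over the 6 libraries did not overlap with each other, whereas MEN1 overlapped with SMYD5, the next in order. At the low end stood KMT2C at 66.0 ± 11.8 in shHBO1 and 57.6 ± 7.51 in shCTRL, SETDB2 at 45.4 ± 3.14 in shHBO1 and 50.4 ± 3.11 in shCTRL, and KDM7A at 22.9 ± 2.51 in shHBO1 and 20.6 ± 2.44 in shCTRL. From MEN1 down to KMT5C each gene overlapped with the next, and SETDB2 did not overlap with KDM7A. In the KDM4 family the paralogues stood apart, with KDM4A at 532 and KDM4B at 63.5 per kb in shHBO1, and 511 and 69.6 in shCTRL.

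**Figure D4:**
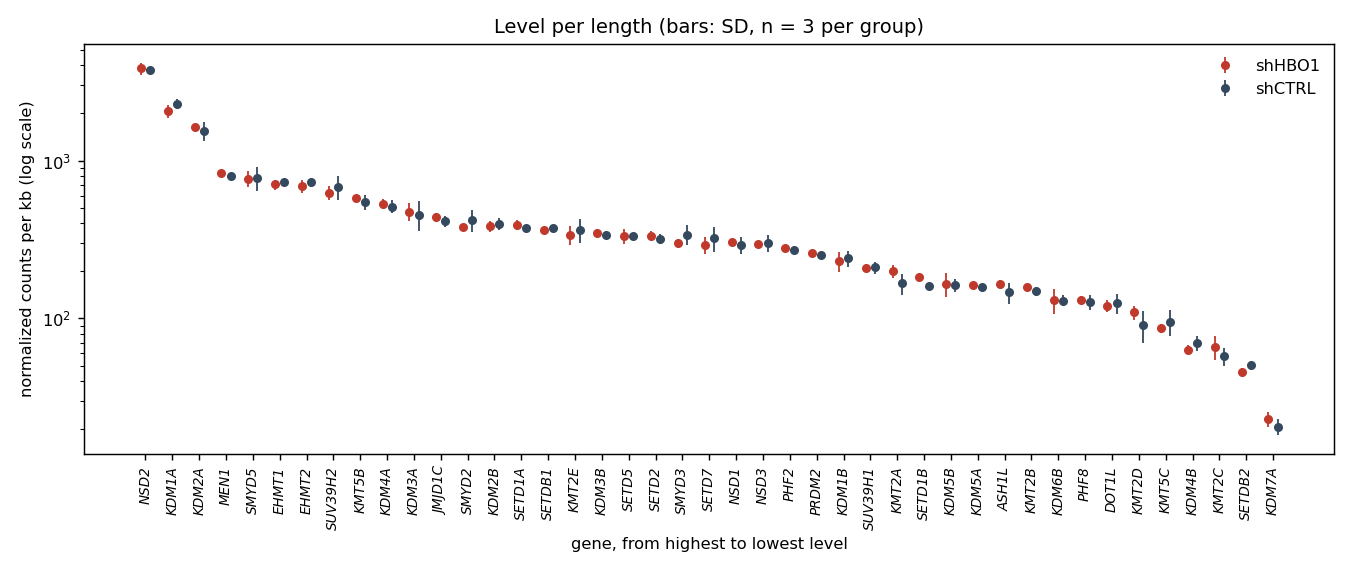
Normalized counts per kb of transcript (y axis, log scale) for 43 genes ordered by their mean level, with shHBO1 left of shCTRL for each gene and bars giving the SD (n = 3 per group). NSD2, KDM1A and KDM2A stand above the rest, and KDM7A is the lowest at 22.9 in shHBO1 and 20.6 in shCTRL.

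Libraries with the same number shared deviations in several genes. In a limma F test of the replicate number beside the group, KMT2E, SETD7, SMYD5 and KDM3A passed an adjusted p of 0.05. These are 4 of 45, where the test called 9.68% of all genes. SETD7 and SMYD5 were highest in library 3 of both groups, with 2341 in shHBO1 and 2614 in shCTRL for SETD7. KMT2E and KDM3A were lowest there, with 1929 in shHBO1 and 1980 in shCTRL for KMT2E, and 1894 in shHBO1 and 1627 in shCTRL for KDM3A. All 4 marker lists also had their lowest sum in library 3 of each group. Library 3 of the epithelial list stood at 206163 in shHBO1 and 216525 in shCTRL, of the serous and Mullerian list at 11405 in shHBO1 and 11975 in shCTRL, of the fibroblast and endothelial list at 1737 in shHBO1 and 1552 in shCTRL, and of the leukocyte list at 531 in shHBO1 and 542 in shCTRL. Their part in these values was not tested.

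The differences between groups depended on the number too. In 16 of the 45 genes (35.6%) the shHBO1 value was the higher in pairs 1 and 2 and the lower in pair 3, a pattern held by 19.6% of all genes. The opposite pattern was held by 3 of 45 (6.67%), against 16.3% of all genes. Counting both, 42.2% of the 45 and 36% of all genes had the opposite sign in pair 3. The H3K4 group had median log2 differences of 0.21 and 0.12 in pairs 1 and 2 and of −0.07 in pair 3. For the H3K36 and H3K79 group these were 0.14, 0.10 and −0.16. In 5 of the 45 genes all 3 pairs were higher in shHBO1 and in 8 all were lower, beside 32.4% of all genes with 3 pairs of 1 sign. Without shCTRL library 3 the groups did not overlap for 17 of the 45 genes (37.8%), beside 36.3% of all genes, and without shHBO1 library 3 for 9 (20%), beside 18%. Without both number 3 libraries this held for 24 genes (53.3%), beside 46.6% of all.

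Transcript length went along with the estimates. Transcripts averaged at least 8 kb for 12 of the 43 genes with a length, a boundary chosen after the values were seen: KMT2A, KMT2B, KMT2C, KMT2D, SETD1B, SETD2, NSD1, ASH1L, JMJD1C, KDM5A, KDM5B and KDM7A. All 12 had an estimate above 0, from 0.01 for KDM5B to 0.29 for KMT2D, under every scaling tried, and 11 of 12 did when only the most abundant transcript was used, or without shCTRL library 3, shHBO1 library 1 or shHBO1 library 2. Their median log2 fold change was 0.12, with 0.080 without shHBO1 library 1 and 0.19 without both number 3 libraries. The other 31 had a median of −0.0086, with 12 above 0 and 19 below. This balance turned when 1 library was left out, with 16 above 0 and 15 below without shCTRL library 3 (median 0.016), shHBO1 library 2 (0.0090) or shHBO1 library 3 (0.0028), and 17 above and 14 below without both number 3 libraries (0.0034). Within pairs the 12 had median differences of 0.23, 0.15 and −0.06, so that pair 3 went the other way.

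Over all genes with a length, the 778 with transcripts of at least 8 kb had a median estimate of 0.09, and the 13463 shorter ones of −0.0046. In pairs 1, 2 and 3 the medians of the 778 were 0.13, 0.10 and 0.02, so their pair 3 was smaller but did not turn below 0. Those of the shorter ones were 0.00010, −0.0038 and −0.013. Spearman's rho between mean transcript length and log2 fold change was 0.57 over the 43 genes and 0.17 over all 14241 genes with a length. It was 0.50, 0.51 and −0.07 in pairs 1, 2 and 3 over the 43 genes, and 0.14, 0.11 and 0.08 over all. These are descriptions across genes that share the same 6 libraries and their depth, and genes are not independent replicates.

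**Figure D5:**
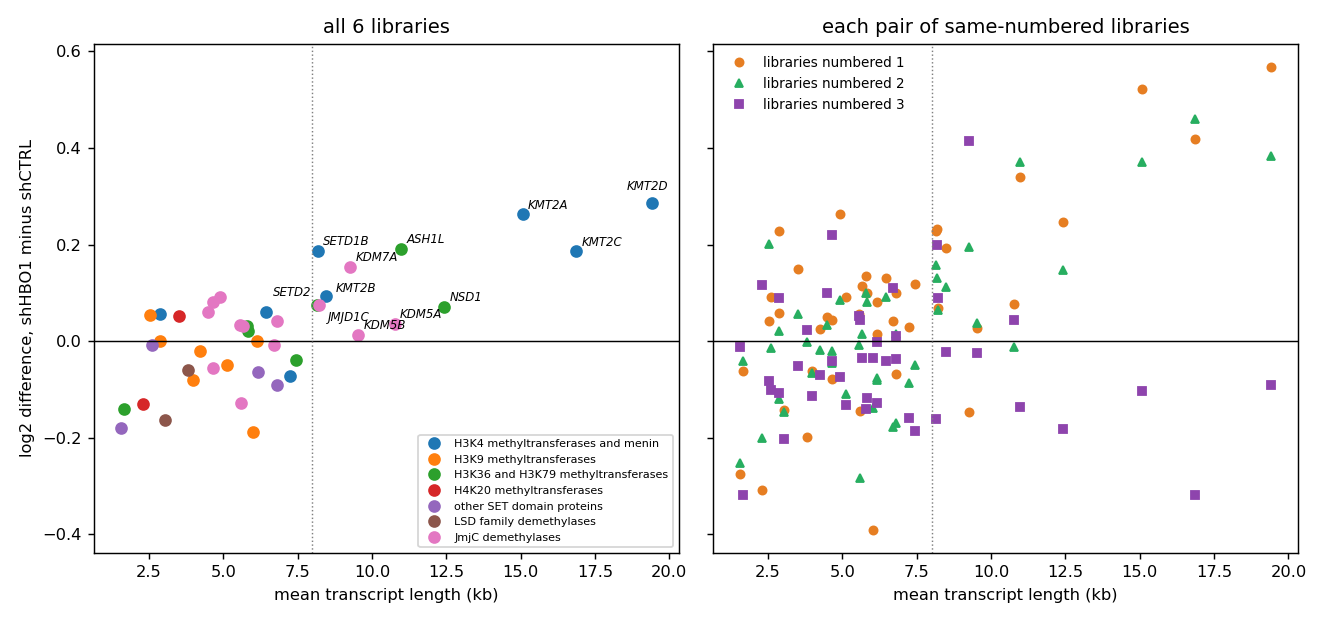
Log2 difference, shHBO1 minus shCTRL (y axis), against mean transcript length in kb (x axis) for 43 genes, on the left from all 6 libraries and coloured by role, on the right for each pair of same-numbered libraries. The dotted line marks 8 kb. All 12 genes right of it lie above 0 on the left, and in pair 3 their median is −0.06.

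Other genes of the list with several transcripts showed how far the shares vary between replicates. Among 81 transcripts of 25 genes, the median range of a transcript's share over the 3 shCTRL libraries was 6.43 percentage points, and the largest was 33.3, for NM_031915 of SETDB2. For KMT5B, NM_001300908 had 264, 227 and 231 normalized counts in shHBO1, against 0, 187 and 519 in shCTRL, so that the shCTRL libraries alone spanned the whole range. Shares did not overlap between groups for 13 of the 81 transcripts (16.0%), in 8 genes, beside 9.43% of all 26488 transcripts, and PRDM2 alone passed the test. NM_001160308 of SETDB2 was 1 of the 13, with a mean share of 39.4% in shHBO1 and 11.4% in shCTRL (limma diffSplice, unadjusted p = 0.0355). It averaged only 70.3 normalized counts over the 6 libraries.

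Besides PRDM2, NSD3 and KDM2A were led by transcripts that encode a protein without the catalytic part. NSD3 was led by NM_017778, the short form of 645 residues that lacks the SET domain, with a share of 71.0 ± 3.17% in shHBO1 and 76.2 ± 5.16% in shCTRL. Its long form NM_023034, of 1437 residues, held 29.5, 32.0 and 25.7% in shHBO1, against 26.4, 27.1 and 17.8% in shCTRL. KDM2A was led by NM_001256405, which encodes 723 residues and lacks the JmjC domain, with 58.8 ± 0.08% in shHBO1 and 58.9 ± 3.11% in shCTRL. Its full-length form NM_012308, of 1162 residues, held 14.4 ± 5.58% in shHBO1 and 20.6 ± 5.30% in shCTRL. In NSD3 and KDM2A these shares overlapped between groups.

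Partners of these enzymes were read from 8 lists of complex subunits, readers, other methylation enzymes and cofactor metabolism. Apart from KAT7, 0 of 85 genes passed with or without the block, with 43 estimates above 0 and 42 below and a median log2 fold change of 0.00023. Groups did not overlap for 5 of the 85 that were higher in shHBO1 (RCOR1, RBBP5, ZNF644, NNMT and BRD1), where 4.49% of all genes were. They did not overlap for 1 that was lower, PAXIP1, where 4.44% of all genes were. RCOR1, the CoREST scaffold that binds LSD1, had 3163, 3315 and 2934 normalized counts in shHBO1, against 2599, 2796 and 2695 in shCTRL. The groups did not overlap, and the log2 fold change was 0.22 (SE 0.076, limma adjusted p near 1). HMG20B, another subunit of that complex, had a log2 fold change of −0.21, and the 10 genes of the complex had a median of 0.02.

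The 15 COMPASS subunits had a median estimate of 0.07, with 11 above 0. BOD1 averaged 4176 ± 316 in shHBO1 and 3588 ± 273 in shCTRL, and PAXIP1, which binds KMT2C and KMT2D, averaged 1063 ± 23.4 in shHBO1 and 1197 ± 67.9 in shCTRL without overlap. Readers of H3K36 methylation had 8 of 9 estimates below 0 and a median of −0.05, with ZMYND11 and PSIP1 both at −0.15. Among H3K9 readers and cofactors the median was 0.00023, with ZNF644, a partner of EHMT1 and EHMT2, at 0.14 and ATF7IP, a cofactor of SETDB1, at 0.17. The DOT1L and super elongation cofactors had a median of 0.02, with AFF4 at 0.13 and MLLT10 at −0.10.

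Of 13 genes of methyl donor and 2-oxoglutarate metabolism, 10 had estimates below 0, and the median was −0.05 on the log2 scale. NNMT, which consumes S-adenosylmethionine, had 74.8, 71.3 and 98.4 in shHBO1, against 58.9, 71.2 and 52.4 in shCTRL, and the groups met without overlap at 71.3 and 71.2. MAT2A, which makes S-adenosylmethionine, had a log2 fold change of 0.17. Of 13 other lysine methyltransferases and demethylases, 8 had estimates above 0, with SETMAR at 0.16 and RIOX1 at 0.15. In the HBO1 complex, BRPF3 averaged 1428 ± 97.0 in shHBO1 and 1231 ± 235 in shCTRL.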

How the data were processed

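RNA-seq of 3 shHBO1 and 3 shCTRL libraries was analysed from 1 table of the whole series. The authors deposited a normalized signal (counts divided by 1 size factor per library) for 58215 RefSeq transcripts. Per the submitters' processing notes, Bowtie 1.2.1.1, SAMtools, DESeq2 and hg19 were used, with no role given for each. Dividing the deposited values of a library by the worth of 1 read gave whole reads for 100% of them at a tolerance of 0.01 read. Names came from RefSeq (GRCh38.p14) for 57191 transcripts and GENCODE 29 for 646. The other 378, with 0.092 to 0.0977% of reads, were not used. Transcripts were summed to 26966 named genes. The sources used here do not say how a read shared by several transcripts or genes was counted, nor whether strand was used.

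Genes averaging at least 10 (15173) were tested with limma 3.58.1 (R 4.3.3, trend) on log2(value + 1), with Benjamini-Hochberg adjustment over all genes and a threshold of 0.05. This scale understates changes of low genes. Transcripts with a mean of at least 10 were tested against their gene with limma's diffSplice. The recovered reads were tested with edgeR 4.0.16 and DESeq2 1.42.0 as alternatives. On the recovered reads edgeR passed 1 gene without the block and 19 genes once it was added. The tests were run on simulated data first. Exact permutation tests used SciPy 1.17.1 in Python 3.11.15. Levels per kb used GENCODE 29 transcript lengths where matched transcripts held at least 80% of a gene's counts. Promoters were those of RefSeq, which listed 42 of the 45 genes.

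Library numbers are shared by both groups. The correlations of same-numbered libraries' deviations from their group means were 0.32, 0.19 and 0.48 for numbers 1, 2 and 3, all over the limit of 0.1. Same-numbered libraries were therefore also described as pairs, although no label names a common day or batch. The main fit was not paired, and the block was an alternative. SEs and intervals are from the fit without the block unless a sentence names the block. The genes, lists and tests were chosen with earlier results of these data known. Library values are given for genes past the threshold, for genes whose groups did not overlap, for the 2 with the smallest p in each of the 6 larger role groups, and for genes with a transcript past the threshold, and for each partner list the 2 genes with the smallest p are named. KMT2D and KDM1A were added after their values were seen.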

Additional observations from a re-analysis of the deposited data

How the results depend on the processing

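KAT7 passed under all 22 alternatives, with log2 fold changes of −2.16 to −1.89, and the median of the 45 genes stayed between 0.0024 and 0.035. With the replicate block, limma and edgeR each called 19 genes, and DESeq2 called 19 without and 147 with the block, but 0 of the 45 in each. The blocked limma fit without the number 3 libraries, with 1 residual degree of freedom, called 2160 genes (14.2%) and 8 of the 45: ASH1L, KDM1A, KDM2A, KMT2A, KMT2C, KMT2D, NSD1 and SETD2. Genes of the 45 whose groups did not overlap numbered 3 to 17 (6.67 to 37.8%) when each library was left out, beside 13.9 to 36.3% of all genes. Without the number 3 libraries they numbered 24 (53.3%), beside 46.6% of all genes. Of 330 alternative values for the 15 enzymes given by library, 318 kept their sign, and 4 passed, all in that blocked fit. The sizes were less stable: leaving out 1 library moved the estimate by over 1.5 times in either direction for 12 of the 15, all but KMT2A (0.18 to 0.38), SETD1B (0.17 to 0.22) and SETDB2 (−0.24 to −0.13). The ranges were 0.11 to 0.31 for ASH1L, 0.17 to 0.46 for KMT2D, 0.067 to 0.25 for KDM7A, 0.0023 to 0.12 for KMT5A, −0.14 to −0.0044 for EHMT2, −0.13 to −0.0031 for SETD5, −0.20 to −0.016 for SMYD2, −0.29 to −0.083 for SMYD3, −0.23 to −0.081 for KDM1A and −0.22 to −0.073 for KDM4B. With only the most abundant transcript, KMT5A turned to −0.027 and PRDM2 to 0.21. KMT5C ranged from −0.26 to 0.0081 when each library was left out, and was positive only without shCTRL library 1. PRDM2, at 0, turned positive under DESeq2 size factors (0.00043), DESeq2 without (0.0017) and with the block (0.00054), without the number 3 libraries in both fits (0.00058) and without shCTRL 1, shCTRL 2, shHBO1 2 or shHBO1 3, with a range of −0.049 to 0.025 over the libraries left out.

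Transcripts past the threshold numbered 5 at a mean of at least 50, 55 to 80 when each library was left out, 132 without the number 3 libraries and 0 with edgeR, with or without the block. NM_012231 of PRDM2 lost its call under the block (−2.09, adjusted p = 0.137), under the block without the number 3 libraries (−2.53, adjusted p = 0.147) and in edgeR without (−2.08, adjusted p = 0.834) and with the block (−2.07, adjusted p = 0.758), where 0 transcripts of the list passed. It kept the call under a mean of at least 50 (adjusted p = 0.0138), robust variance shrinkage (0.0081) and without the number 3 libraries (0.0262). The edgeR, robust and number 3 transcript fits, and a pseudocount of 5 in the test of library numbers, were chosen after seeing the data. The causes of these changes were not tested. Depth limits single transcripts with few reads more than gene sums.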
